A study of Homo sapiens with 6 samples.

Results

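The urokinase plasminogen activator system was followed here through 6 genes chosen by symbol, namely the activators PLAU and PLAT, the urokinase receptor PLAUR, the inhibitor SERPINE2, and ANXA2 and S100A10, which encode the subunits of a plasminogen-binding complex of the cell surface. All 6 had a row among the 12703 genes of the count table, matched by their Entrez identifiers (PLAU 5328, PLAT 5327, PLAUR 5329, SERPINE2 5270, ANXA2 302 and S100A10 6281). The cells were PC3, a long-established line of human prostate cancer cells that came from a metastasis in bone. The control group held 3 libraries from PC3 lines stably transduced with negative-control lentivirus. The GCNT1 OE group held 3 libraries from PC3 lines stably transduced with lentivirus carrying GCNT1, so cells of both groups had been through transduction. GCNT1 is the glycosyltransferase that forms core 2 branched O-glycans, and the study asked which gene expression pathways change when it is overexpressed. The labels call the libraries biological replicates, but neither they nor the methods say whether each line came from its own transduction, so the p-values measure the spread between these lines.

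Plasminogen activators are serine proteases that cleave the inactive zymogen plasminogen to plasmin, a broad protease that degrades fibrin and matrix proteins and can activate other proteases. Urokinase (PLAU) acts mainly at the cell surface, where its receptor (PLAUR), a glycolipid-anchored protein, concentrates it, while tissue-type activator (PLAT) is known best for dissolving fibrin clots. Serpins such as protease nexin-1 (SERPINE2) bind the activators and block them irreversibly, and annexin A2 with S100A10 gathers plasminogen and tissue-type activator on the membrane. In prostate cancer the system is studied chiefly for its part in invasion and bone metastasis.

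Total counts ran from 11392213 to 13825704 per library. GCNT1 itself had 9, 13 and 8 counts in control replicates 1 to 3 and 13, 16 and 35 counts in GCNT1 OE replicates 1 to 3. That is 0.812 ± 0.202 against 1.59 ± 0.772 CPM (counts relative to library size, scaled with edgeR's TMM factors, SD, n = 3 each), which is in the direction of the labels but low in all 6 libraries. The markers KRT8, KRT18 and VIM of this cell line had group means between 202 and 1390 CPM, and EPCAM had 5.54 CPM in controls and 5.91 CPM with GCNT1 overexpression. Among the markers checked for other cell types, the endothelial gene PECAM1 had 1.77 CPM in controls and 4.43 CPM with GCNT1 overexpression, and no rows were analysed here for PTPRC, CDH5, DCN and LUM, nor for the prostate luminal genes KLK3 and KLK2. Another luminal gene, TMPRSS2, had 4.20 CPM in controls and 1.75 CPM with GCNT1 overexpression. Across the 11682 genes with a reference transcript, the deviation of a library from its group mean correlated with transcript length with a Spearman rho of -0.40 in control replicate 3 and -0.48 in GCNT1 OE replicate 1, and between 0.14 and 0.40 in the other 4 libraries. Each group thus held 1 library with relatively more counts on short transcripts, and the members are also given without that pair.

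Both plasminogen activators rose with GCNT1 overexpression, PLAU 2.14-fold and PLAT 2.05-fold, and the urokinase receptor gene PLAUR rose 1.37-fold. SERPINE2 did not pass the test (edgeR's quasi-likelihood F-test, with p-values adjusted after Benjamini and Hochberg, BH, over all genes tested), and ANXA2 and S100A10 fell, to 0.764 and 0.906 of their control level. Of the 6 members, 3 were higher at an adjusted p under 0.05, where 28.3% of all genes tested were, and 2 were lower, where 29.3% of all genes were. With the study's minimum of 0.58 on the absolute log2 fold change added, 2 were higher (8.28% of all genes) and 0 were lower (11.1% of all genes) by edgeR. The members' counts were also 2 and 0 by limma-voom and by DESeq2, 2 were lower by edgeR at an unadjusted p under 0.05, and the lowest log2 fold change of a member was -0.39. In 3 members every GCNT1 OE library lay above every control library, as it did in 30.9% of all genes, and in 2 members every GCNT1 OE library lay below, as in 31.6% of all genes. The median log2 fold change of the members was 0.24, against 0.0010 over all genes tested. With shares this high across the whole table, these counts over 6 members say little by themselves. PLAU had the 365th and PLAT the 400th highest log2 fold change among the 12703 genes.

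**Figure D1:**
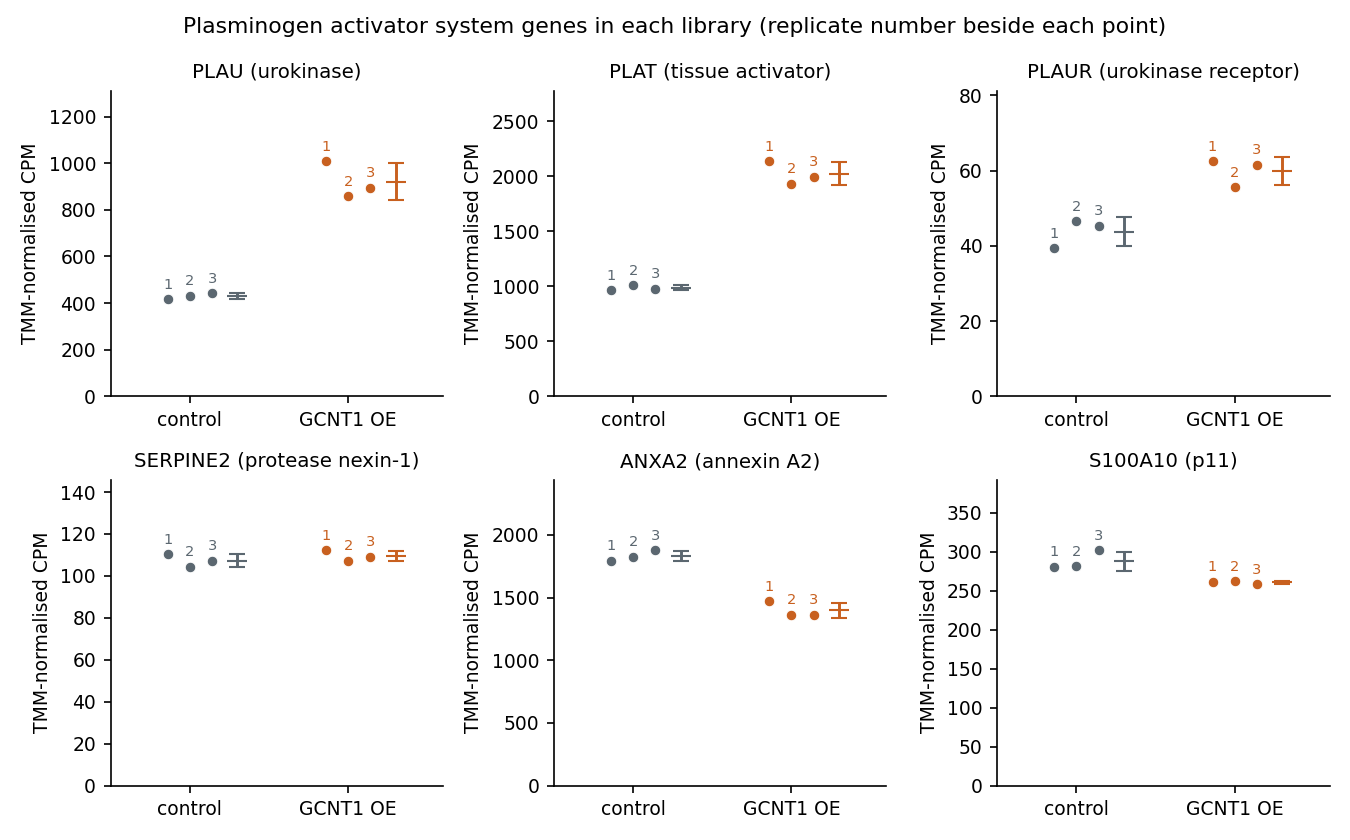
TMM-normalised CPM (vertical axes, from 0) of the 6 members in each control and GCNT1 OE library (points, with the replicate number) and the mean with its SD over 3 libraries (bars beside the points). PLAU and PLAT lie higher in all GCNT1 OE libraries, PLAUR lies above by less, SERPINE2 overlaps between the groups, and ANXA2 and S100A10 lie lower.

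PLAU encodes urokinase and lies on the plus strand of chromosome 10 of hg38 from 73909177 to 73917496. Its level was 416, 431 and 443 CPM in control replicates 1 to 3 and 1009, 858 and 895 CPM in GCNT1 OE replicates 1 to 3. The groups were far apart, and the highest value was that of GCNT1 OE replicate 1. The mean went from 430 ± 13.9 to 921 ± 78.7 CPM (SD, n = 3 per group), and its log2 fold change was 1.10 (SE 0.06, 95% interval 0.97 to 1.22, edgeR with BH, adjusted p = 4.79e-09). Around PLAU on chromosome 10, the 50 closest genes of the table had a median change on the log2 scale of 0.22, and PLAU was 0.87 above that median. The long non-coding gene C10orf55, which overlaps PLAU on the opposite strand, was counted between 16 and 38 times per library, against at least 5231 counts for PLAU, and the sources used here do not say whether the counting used strand.

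The reference sequence around the start site (position 73911132) of the PLAU transcript used for its length is shown. PLAU was picked for its log2 fold change, the largest of the members, though its 95% interval overlapped that of PLAT. The sequence covers chr10:73910882-73911181 on the plus strand of GRCh38.p14, 250 bases before to 50 bases after the start in RefSeq. Capitals mark GGGCGG, the GC box bound by Sp1-type factors.
PLAU: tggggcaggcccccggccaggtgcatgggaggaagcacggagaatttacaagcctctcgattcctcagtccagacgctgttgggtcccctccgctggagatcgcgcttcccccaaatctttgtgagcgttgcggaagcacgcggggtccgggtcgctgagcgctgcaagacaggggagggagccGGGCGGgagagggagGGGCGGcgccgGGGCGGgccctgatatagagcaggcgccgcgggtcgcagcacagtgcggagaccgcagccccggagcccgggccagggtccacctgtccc
The window held 3 GC boxes, whose first bases lie at -66, -51 and -40 from the start site. GGGCGG on either strand was present in 45.0% of the 35116 promoter windows of this length. A further PLAU window in RefSeq, around position 73910610, held none of the motifs searched. The window shown held no TGANTCA, the letters bound by AP-1 factors, and no TATAAA. The AP-1 motif was present in 7.71% and TATAAA in 11.5% of all windows, either strand.

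PLAT encodes tissue-type plasminogen activator and lies on the minus strand of chromosome 8 from 42174718 to 42207709. It was the member with the most counts after ANXA2 in controls. Its level was 967, 1010 and 981 CPM in the control libraries and 2139, 1934 and 1996 CPM in the GCNT1 OE libraries. Again the groups did not overlap, and again GCNT1 OE replicate 1 was the highest. The mean rose from 986 ± 22.4 to 2023 ± 105 CPM (SD, n = 3 per group), and its log2 fold change was 1.04 (SE 0.05, 95% interval 0.94 to 1.14, edgeR with BH, adjusted p = 8.95e-10). Its 50 nearest genes had a median change on the log2 scale of -0.08. Without control replicate 3 and GCNT1 OE replicate 1, the libraries with more counts on short transcripts, the log2 fold change was 0.99 for PLAT, 1.05 for PLAU, 0.45 for PLAUR, 0.0116 for SERPINE2 and -0.41 for ANXA2.

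PLAUR encodes the urokinase receptor and lies on the minus strand of chromosome 19 from 43646095 to 43670547. Its level was 39.4, 46.6 and 45.4 CPM in controls and 62.6, 55.6 and 61.6 CPM with GCNT1 overexpression. The lowest GCNT1 OE library was above the highest control, but the gap was small beside that of the activators. The mean rose from 43.8 ± 3.85 to 59.9 ± 3.80 CPM (SD, n = 3 per group), and its log2 fold change was 0.45 (SE 0.08, 95% interval 0.29 to 0.61, edgeR with BH, adjusted p = 0.000196). This passed the adjusted p but not the fold minimum, and leaving out any 1 library kept the log2 fold change between 0.39 and 0.51. The 50 nearest genes had a median change on the log2 scale of -0.07.

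The corresponding window of PLAUR, chr19:43670120-43670419 on the minus strand of GRCh38.p14, is printed to set the receptor beside its ligand, with capitals marking the AP-1 motif TGANTCA.
PLAUR: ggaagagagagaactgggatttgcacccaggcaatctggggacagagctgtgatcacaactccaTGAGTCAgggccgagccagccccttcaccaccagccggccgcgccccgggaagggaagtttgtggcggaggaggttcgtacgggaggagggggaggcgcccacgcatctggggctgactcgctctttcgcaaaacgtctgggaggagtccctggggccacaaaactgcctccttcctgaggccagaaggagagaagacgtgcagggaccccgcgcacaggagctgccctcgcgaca
The motif begins at -186 from the start site at position 43670169. No GC box and no TATAAA were present in this window.

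SERPINE2 encodes protease nexin-1, a serpin that inhibits thrombin and both plasminogen activators, and lies on the minus strand of chromosome 2 from 223975045 to 224039318. Its level was 110, 104 and 107 CPM in controls and 112, 107 and 109 CPM with GCNT1 overexpression. The groups overlapped. The mean was 107 ± 2.98 CPM in controls and 109 ± 2.52 CPM with GCNT1 overexpression (SD, n = 3 per group), and its log2 fold change was 0.03 (SE 0.05, edgeR with BH, adjusted p = 0.650). The 95% interval of the log2 fold change, -0.08 to 0.14, lies inside the fold minimum on both sides.

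ANXA2 encodes annexin A2, a calcium-dependent phospholipid-binding protein, and lies on the minus strand of chromosome 15 from 60347134 to 60402883. Its level was 1793, 1825 and 1877 CPM in controls and 1470, 1364 and 1364 CPM with GCNT1 overexpression. Every GCNT1 OE library was below every control. From a mean of 1831 ± 42.5 CPM in controls it fell to 1399 ± 61.3 CPM (SD, n = 3 per group), and its log2 fold change was -0.39 (SE 0.04, 95% interval -0.48 to -0.29, edgeR with BH, adjusted p = 6.76e-06). Its 50 nearest genes had a median change on the log2 scale of 0.04.

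ANXA2 has processed pseudogenes, and its counts are less certain than those of the other members. Of the 1480 stretches of read length (75 bases) in its reference transcript of 1554 bases, 472 (31.9%) had an exact copy at one of 3 other loci of hg38, and 468 of these lay in ANXA2P2 on chromosome 9, a locus with 98.5% identity over the aligned part. The other 5 members had 0 such stretches outside their own locus. The rows of the pseudogenes held few counts, with means of 22.4 CPM in controls and 19.4 CPM with GCNT1 overexpression for ANXA2P2, 8.03 and 5.25 CPM for ANXA2P1, and 3.05 and 3.25 CPM for ANXA2P3. When these rows were added to ANXA2, its log2 fold change was -0.39 as before. A pseudogene with no row in the table, RPL36AP44, also lies within ANXA2 on the opposite strand. How reads that matched more than 1 locus were treated is not given in the sources used here.

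The ANXA2 window, chr15:60397937-60398236 on the minus strand of GRCh38.p14, is printed as that of a member that fell, with capitals marking, in order, the AP-1 motif, 3 GC boxes that run into each other, and TATAAA.
ANXA2: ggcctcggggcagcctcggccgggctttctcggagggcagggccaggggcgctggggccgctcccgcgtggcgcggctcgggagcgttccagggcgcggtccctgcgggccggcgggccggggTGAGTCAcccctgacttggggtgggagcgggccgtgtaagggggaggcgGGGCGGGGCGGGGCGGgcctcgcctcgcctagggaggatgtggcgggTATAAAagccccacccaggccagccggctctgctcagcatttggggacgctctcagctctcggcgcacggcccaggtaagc
They begin at -127 (AP-1), -78, -73 and -68 (GC boxes) and -31 (TATAAA) from the start site at position 60397986. Windows were matched for 5 of the 6 members, and not for PLAT. The windows of SERPINE2 and S100A10, not printed, held GC boxes and neither of the other motifs. Among the 5 members, AP-1 letters were thus found for PLAUR, which rose, and ANXA2, which fell. They were not found for PLAU, which rose, S100A10, which fell, or SERPINE2. The SERPINE2 windows, around positions 224031478 and 224038640, do not contain the start at 224039286 of the transcript used for its length. The absence for SERPINE2 therefore cannot be compared with the other members. A match is a description of the letters in these 300 bases and does not show a bound site.

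S100A10 encodes p11, which binds annexin A2 as a dimer and whose carboxy-terminal lysines capture plasminogen. It lies on the minus strand of chromosome 1 from 151982915 to 151993859. Its level was 281, 281 and 302 CPM in controls and 261, 262 and 258 CPM with GCNT1 overexpression. The groups did not overlap, but control replicates 1 and 2 stood much closer to the GCNT1 OE libraries than control replicate 3 did. From a mean of 288 ± 12.1 CPM in controls it fell to 260 ± 1.98 CPM (SD, n = 3 per group), and its log2 fold change was -0.14 (SE 0.05, 95% interval -0.24 to -0.04, edgeR with BH, adjusted p = 0.0171). This call was lost in edgeR's test without control replicate 3 (log2 fold change -0.11, Benjamini-Hochberg adjusted p = 0.0708), without GCNT1 OE replicate 3 (-0.14, 0.0700) and with library size in place of TMM (-0.09, 0.117). Control replicate 3 is the control library with relatively more counts on short transcripts, the S100A10 transcript has 671 bases, and the part of this in the fall was not tested. Without control replicate 3 and GCNT1 OE replicate 1 together, the log2 fold change was -0.11 (edgeR's Benjamini-Hochberg adjusted p = 0.0228).

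Levels can be set side by side between genes only per length, and CPM was therefore divided by the length of the MANE Select transcript, a single reference transcript per gene. On this scale the order in controls was ANXA2 (1179 ± 27.4 CPM per kb), S100A10 (429 ± 18.0), PLAT (322 ± 7.33), PLAU (184 ± 5.92), SERPINE2 (48.2 ± 1.34) and PLAUR (32.0 ± 2.81; SD, n = 3 each), and no neighbours in this order overlapped between libraries. With GCNT1 overexpression the order was ANXA2 (900 ± 39.4 CPM per kb), PLAT (661 ± 34.4), PLAU (393 ± 33.6), S100A10 (388 ± 2.95), SERPINE2 (49.2 ± 1.13) and PLAUR (43.8 ± 2.78; SD, n = 3 each). PLAT passed S100A10 in this order, while PLAU and S100A10 overlapped between libraries. Among the 11682 genes with such a transcript, PLAT moved from place 147 to place 64 and PLAU from place 326 to place 122 by mean level per length. The order depends on the length chosen. With the length of all annotated exons of a gene, a choice made after the data were seen, control levels were led by S100A10 at 284 CPM per kb, followed by ANXA2 at 158, PLAU at 146, PLAT at 127, SERPINE2 at 11.98 and PLAUR at 9.83 CPM per kb. On that scale the GCNT1 OE libraries were led by PLAU at 312 CPM per kb, followed by PLAT at 260, S100A10 at 257, ANXA2 at 121, PLAUR at 13.4 and SERPINE2 at 12.2 CPM per kb.

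**Figure D2:**
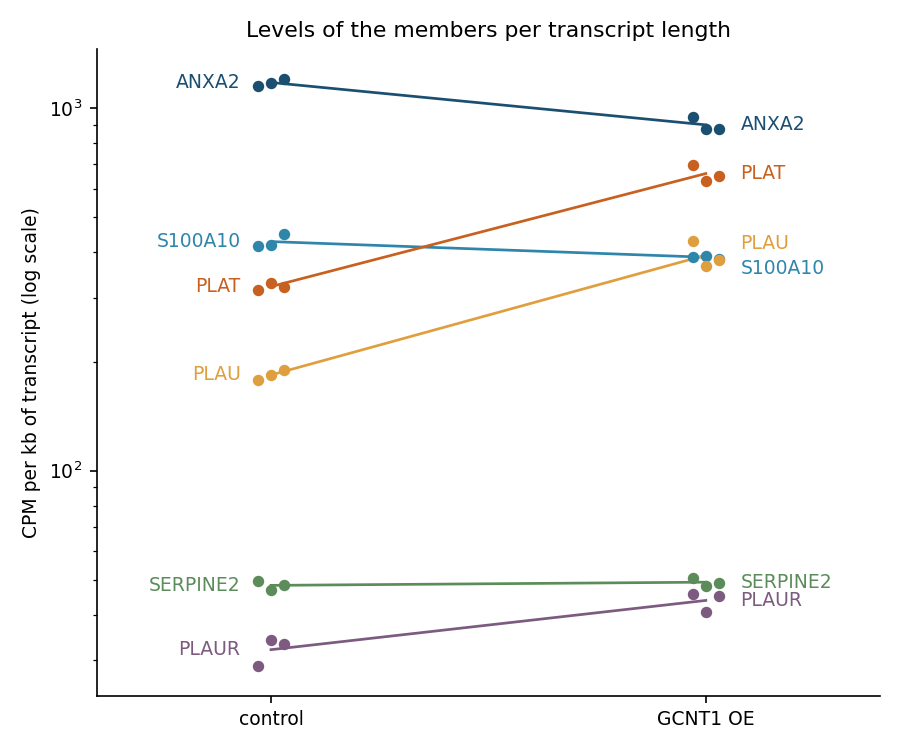
Level of each member per kb of its reference transcript (vertical axis, log scale) in the control and GCNT1 OE libraries (points) with lines joining the group means. The lines of PLAT and PLAU climb to or past that of S100A10, from 322 to 661 and from 184 to 393 CPM per kb, while ANXA2 is the highest member in both groups on this scale.

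Ratios of read counts within a library do not depend on how libraries are scaled to one another. They can still carry the library differences that went with transcript length, as between ANXA2 (1554 bases) and S100A10 (671 bases). The part of these differences in the ratios was not tested. The ratio of PLAT to PLAU was 2.33, 2.34 and 2.21 in the control libraries and 2.12, 2.25 and 2.23 in the GCNT1 OE libraries. These ranges overlapped, and the mean was 2.29 ± 0.0709 against 2.20 ± 0.0714 (SD, n = 3 each). The change on the log2 scale was -0.06 (SE 0.04). The ratio of PLAU to its receptor PLAUR was 10.6, 9.26 and 9.76 in controls and 16.1, 15.5 and 14.5 with GCNT1 overexpression, a change of 0.64 on the log2 scale (SE 0.07). The ratio of PLAT to SERPINE2 went from 9.20 ± 0.463 to 18.5 ± 0.535 (SD, n = 3 each), a change of 1.01 on the log2 scale (SE 0.05). The ratio of ANXA2 to S100A10 went from 6.37 ± 0.138 to 5.37 ± 0.225 (SD, n = 3 each), a change of -0.25 on the log2 scale (SE 0.04). The groups did not overlap in these last 3 ratios. No test was made of the ratios, and an exact two-sided permutation test of 3 libraries against 3 cannot go below p = 0.10.

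**Figure D3:**
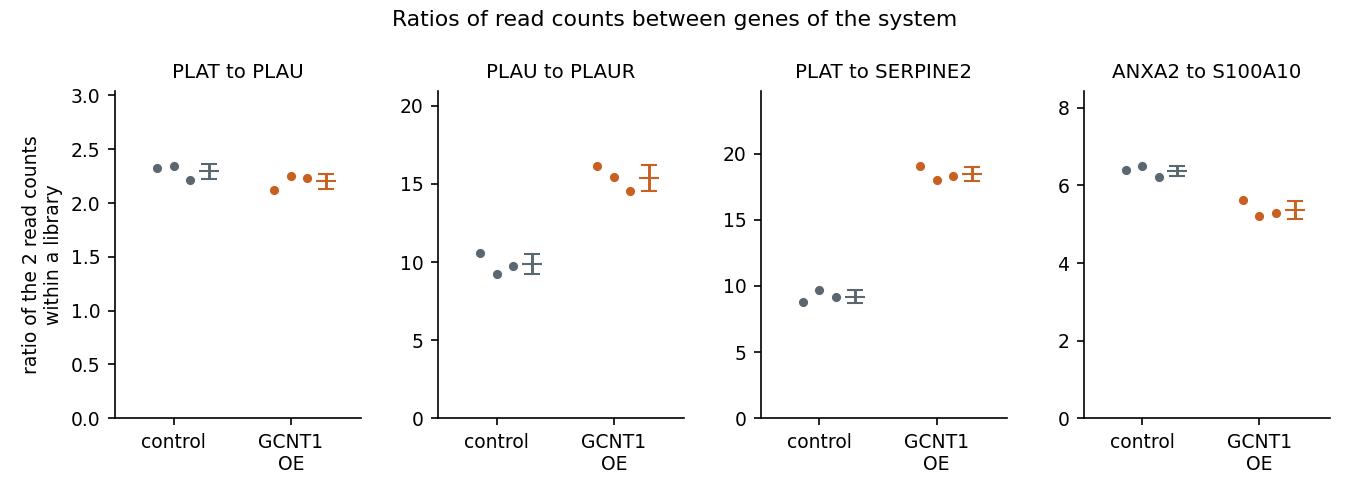
Ratio of the read counts of 2 genes within each library (vertical axes, from 0) for control and GCNT1 OE libraries (points) with the mean and its SD over 3 libraries (bars). PLAT to PLAU overlaps between the groups, at means of 2.29 and 2.20, and the other 3 ratios do not.

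Other genes of the system were taken from a list by role, of which 38 are considered here and 25 had a row in the table. At an adjusted p under 0.05, 9 were higher (28.3% of all genes) and 8 were lower (29.3% of all genes) with GCNT1 overexpression, and 8 did not pass. The number of higher genes was 5 without control replicate 2, without control replicate 3 or without GCNT1 OE replicate 3. Past both thresholds were CTSB, which was higher (8.28% of all genes were), and SERPINB2, ENO1 and ITGB3, which were lower (11.1% of all genes were). The median log2 fold change of the 25 genes was -0.10.

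SERPINB2 encodes PAI-2, a urokinase inhibitor that is mostly kept inside the cell, and its level was low in all libraries. Control libraries held 30, 27 and 28 of its reads and GCNT1 OE libraries held 11, 7 and 6, a log2 fold change of -1.90 (SE 0.29, edgeR with BH, adjusted p = 9.41e-05). SERPINI1 (neuroserpin, an inhibitor of tissue-type activator) had a log2 fold change of 0.04 and did not pass the test. Of the 6 inhibitors considered here, these 2 had a row.

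The genes for other plasminogen binders of the cell surface, with which the list also places AHNAK, a scaffold protein that binds the annexin A2 and S100A10 complex and is not itself a plasminogen receptor, were lower or did not pass. Of these genes 3 of 5 were lower (29.3% of all genes), 0 higher (28.3% of all genes) and 2 not past the adjusted p in edgeR's test. The count of lower genes was 2 without GCNT1 OE replicate 3, and 5 without control replicate 3 and GCNT1 OE replicate 1 together, an alternative chosen after seeing the data. The count of higher genes was also 0 at an unadjusted p under 0.05. ENO1, the glycolytic enzyme enolase 1 that can serve as a plasminogen receptor at the cell surface, was the most abundant gene of the list per length, at 2727 ± 142 CPM per kb in controls and 1720 ± 80.3 with GCNT1 overexpression (SD, n = 3 each). Its log2 fold change was -0.67 (SE 0.05, edgeR with BH, adjusted p = 1.20e-07), where its 50 nearest genes had a median of -0.27. PLGRKT, a transmembrane plasminogen receptor, fell by 0.41 and HMGB1 fell by 0.22 on the log2 scale. KRT8, a keratin that binds plasminogen at the surface of some epithelial cells, and AHNAK had log2 fold changes of -0.14 and -0.13 and did not pass.

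Among the proteases that can activate pro-urokinase, 3 of 8 had a row. CTSB, the lysosomal cysteine protease cathepsin B, rose from 318 ± 12.7 to 568 ± 24.9 CPM (SD, n = 3 per group), and its log2 fold change was 0.84 (SE 0.05, edgeR with BH, adjusted p = 1.20e-08). CTSL, cathepsin L, rose by 0.35 on the log2 scale, short of the fold minimum. F12, coagulation factor XII, had a log2 fold change of -0.37 (edgeR with BH, adjusted p = 0.0447), with groups that overlapped. Its call was lost without control replicate 2, control replicate 3, GCNT1 OE replicate 2 or GCNT1 OE replicate 3. Without control replicate 3 and GCNT1 OE replicate 1 together it was lost as well. The same held with library size in place of TMM, with the replicate number as a block, and by limma-voom and DESeq2.

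For partners of the urokinase receptor, 9 of 11 had a row, and 2 were higher (28.3% of all genes), 2 lower (29.3% of all genes) and 5 not past the adjusted p. Without control replicate 3, 4 were lower. The integrin subunit genes ITGA3 and ITGA5 rose by 0.26 and 0.21 on the log2 scale, and ITGB5 fell by 0.24. ITGA3 had the third highest level per length of this list, at 164 ± 7.88 CPM per kb in controls and 197 ± 7.43 with GCNT1 overexpression (SD, n = 3 each). ITGB3, the beta subunit of the vitronectin receptor, had 8.83 ± 0.626 CPM in controls and 5.75 ± 1.26 CPM with GCNT1 overexpression (SD, n = 3 per group), and its log2 fold change was -0.60 (SE 0.15, edgeR with BH, adjusted p = 0.00383). It was past the fold minimum by little, and its log2 fold change was -0.54 without control replicate 1, -0.45 without GCNT1 OE replicate 1, and -0.55 with library size in place of TMM, all under that minimum. ITGB1, the beta subunit that pairs with ITGA3 and ITGA5 and the gene of this list with the highest level per length after ENO1, had 436 ± 27.2 CPM per kb in controls and 443 ± 30.4 with GCNT1 overexpression (SD, n = 3 each), and did not pass the test. CAV1, MRC2, EGFR and ITGAV did not pass either, with log2 fold changes between -0.21 and 0.04.

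Of the receptors that clear complexes of activator and inhibitor, with their chaperone, 6 of 7 had a row, and 5 were higher (28.3% of all genes) and 1 was lower (29.3% of all genes) at an adjusted p under 0.05, none past the fold minimum. The count of higher genes rests on single libraries, since it was 1 without control replicate 2, without control replicate 3 or without GCNT1 OE replicate 3, and 2 without GCNT1 OE replicate 2. It was 3 by limma-voom and by DESeq2. Without control replicate 1 the count of lower genes was 0 in edgeR's test. LRP1, the receptor that takes up urokinase and tissue-type activator bound to their inhibitors, rose by 0.18 on the log2 scale, with groups that overlapped. LRPAP1, the chaperone of this receptor family, rose by 0.30, VLDLR by 0.26, SORL1 by 0.21 and LRP8 by 0.16 on the log2 scale, and the groups overlapped for VLDLR and SORL1 too. IGF2R, the receptor for mannose 6-phosphate that also binds plasminogen and the urokinase receptor, fell by 0.21.

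**Figure D4:**
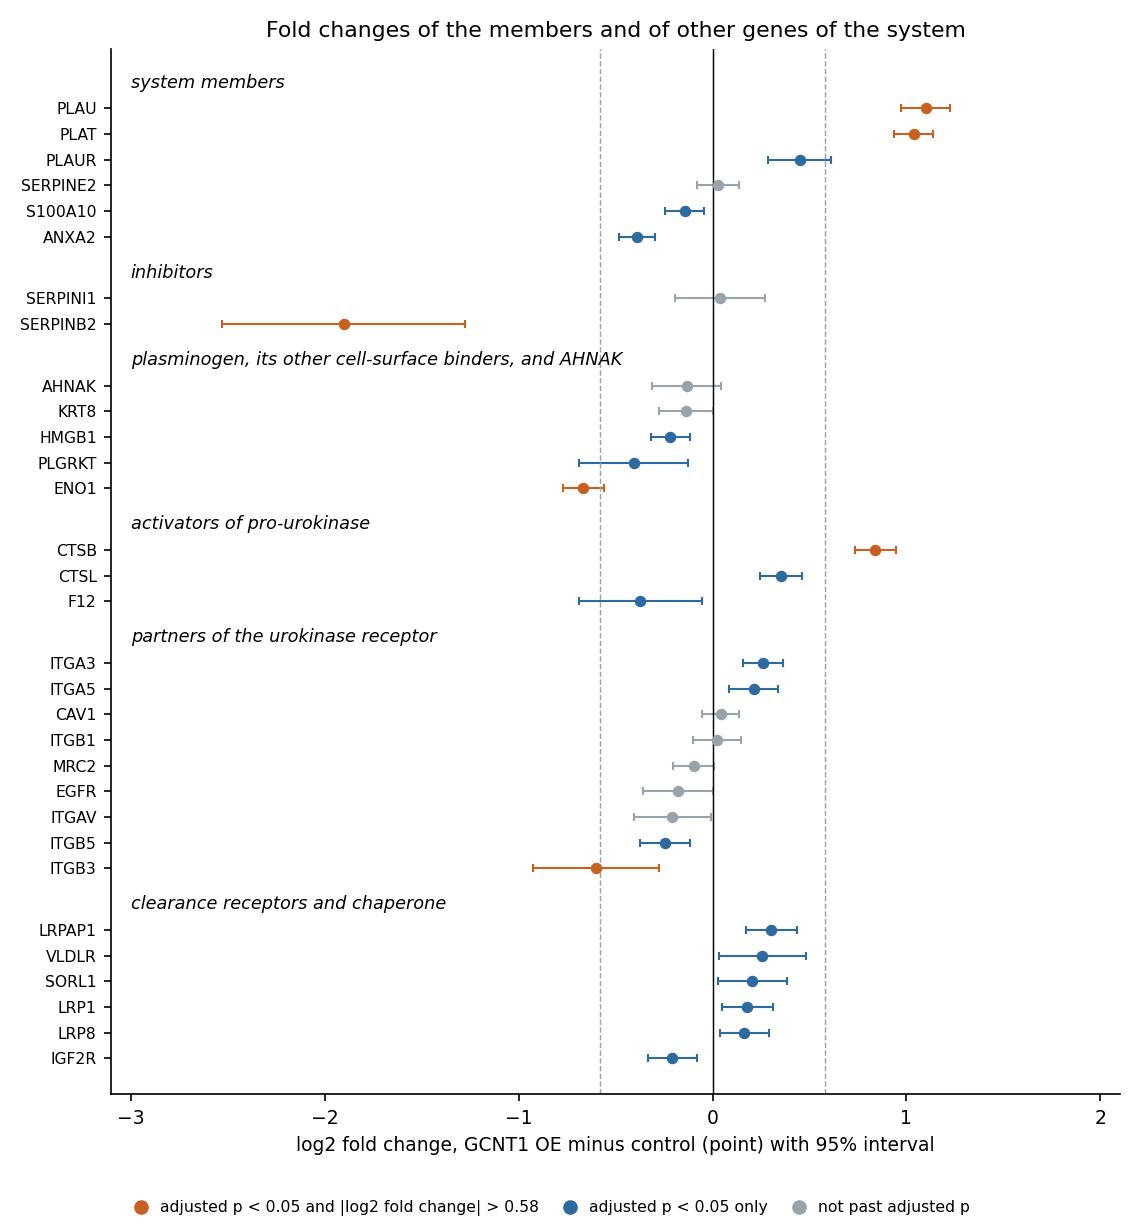
Log2 fold change between GCNT1 OE and control libraries (horizontal axis, points) with its 95% interval (bars) for the 6 members and 25 other genes of the system, grouped by role. Dashed lines stand at the fold minimum of 0.58, and beyond it lie PLAU, PLAT and CTSB on the higher side and SERPINB2, ENO1 and ITGB3 on the lower side.

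The genes with a pattern most like those of the activators were found by the Euclidean distance between log2 CPM profiles over the 6 libraries, each centred on its own mean. The nearest to PLAU were ZMYND19 (distance 0.0991) and AEN (0.104), with log2 fold changes of 1.12 and 1.06. The nearest to PLAT were AEN (0.0433) and SERPINH1 (0.104), with log2 fold changes of 1.06 and 0.99. PLAT stood 4th among the genes nearest to PLAU and PLAU stood 3rd among those nearest to PLAT, at a distance of 0.118. With 6 libraries in 2 groups, such a distance depends on the group difference and on differences between libraries. The share of each was not measured.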

How the data were processed

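RNA from 3 control and 3 GCNT1 OE PC3 lines was sequenced by the authors as stranded mRNA libraries (single reads of 75 bp). The authors used Galaxy 22.01, with Cutadapt for trimming, HISAT2 for alignment to the hg38 genome and featureCounts for assigning reads to genes, and deposited raw read counts per gene, 1 column per library, not normalised and not pooled. Gene annotation, strand setting and any low-count filter are not given in the sources used here.

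Groups and replicate numbers came from the sample titles, and all 6 columns were used. In R 4.3.3, counts were tested with edgeR 4.0.16 (filterByExpr, which kept all 12703 genes, TMM factors, quasi-likelihood test of the 2 groups, Benjamini-Hochberg adjustment over all genes). The thresholds were an adjusted p of 0.05 and, for the second call, an absolute log2 fold change of 0.58. No set test was made. The members, lists and tests were chosen with earlier results of these data known. Named genes were all members, genes of the list past both thresholds, its 3 most abundant genes per length, and the 2 nearest profiles of each member past both thresholds. GCNT1 was named as the check of the labels. Other genes of the list, and the ANXA2 pseudogenes, are outside this rule and were named after their values were seen. Same-group libraries differed by more than sampling noise (chi-square per degree of freedom 1.65 to 5.61). A floor of 3 counts is 0.217 to 0.263 CPM and covers counting error only.

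Of the 12703 genes, 12661 had a symbol (RefSeq, GRCh38.p14) and 12466 a position in GENCODE 44. Transcripts of the members were matched to hg38 with minimap2 2.31. Alternatives were limma-voom (limma 3.58.1), DESeq2 1.42.0, RLE factors, library size, other filters, glmTreat, a replicate block and left-out libraries. The fitting script was first tested on simulated data. Some genes of the lists are not reported here.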

Additional observations from a re-analysis of the deposited data

How the results depend on the processing

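Under the alternatives listed for them, 2 members (PLAU and PLAT) passed both thresholds each time, and PLAU, PLAT, PLAUR and ANXA2 kept their direction and an adjusted p under 0.05 except that a test against the fold minimum itself (edgeR's glmTreat) did not call PLAUR (log2 fold change 0.45) or ANXA2 (-0.39). S100A10 (-0.14) was not called by glmTreat, with library size alone (-0.0853), with the replicate block (-0.14), without control replicate 3 (-0.11) or without GCNT1 OE replicate 3 (-0.14). With glmTreat, 1392 genes of the table and 2 of the other genes of the system were called, in place of 2457 and 4, since the test is stricter by construction. Relative to the median of the 50 nearest genes, the log2 fold change was 0.87 for PLAU, 1.12 for PLAT, 0.17 for SERPINE2 and -0.43 for ANXA2. Leaving out libraries gave 2409 to 2511 called genes, 2 called members each time and 3 to 4 called other genes, and log2 fold changes of 1.03 to 1.15 for PLAU, 0.99 to 1.07 for PLAT, 0.39 to 0.51 for PLAUR, 0.0092 to 0.06 for SERPINE2, -0.43 to -0.36 for ANXA2 and -0.16 to -0.11 for S100A10. The change in the ratio of PLAT to PLAU stayed between -0.09 and -0.03 on the log2 scale. Requiring 10 counts in every library leaves out SERPINB2 because of its own fall. With library size alone the median log2 fold change of all genes moved from 0.0010 to 0.06.

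The labels do not say whether libraries of 1 replicate number were handled together. Across genes, each library was taken relative to its group mean. The correlation between libraries of 1 number was then -0.273, -0.0024 and -0.109, and no library correlated best with its own number. With deviations from a group mean, these values cannot exclude that libraries of 1 number shared a batch. With the replicate block 2423 genes were called, 2414 of them also without it, 2 members were called, 5 other genes of the system in place of 9 were higher at an adjusted p under 0.05 (1 in place of 5 among the clearance receptors and their chaperone), and S100A10 had a log2 fold change of -0.14 (Benjamini-Hochberg adjusted p = 0.0656 in edgeR's test).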
